A study of Homo sapiens with 6 samples.

Results

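Colony-stimulating factors and the related cytokines that act through FLT3 and KIT govern how blood progenitors survive, divide and mature into macrophages, granulocytes and dendritic cells. The 10 genes described here encode receptors and ligands of these systems and were taken by symbol: CSF1R, CSF1, CSF2RA, CSF2RB, CSF3R, IL3RA, FLT3, FLT3LG, KIT and IL34. Of these, 9 had a row among the 35009 genes of the deposited table, each with 1 row, and IL34 was not analysed here. Polyadenylated RNA was sequenced from macrophages of the THP-1 line, which came from a human acute monocytic leukaemia. All 6 libraries came from cells given oxidised low-density lipoprotein (ox-LDL), which macrophages take up as they turn into foam cells. The control group held 3 libraries with the genotype label control, and the siMCT4 group held 3 libraries labelled as deficient in MCT4, the lactate exporter encoded by SLC16A3. The dose and time of ox-LDL, the agent used to differentiate the cells and any control siRNA are not stated in the labels. An effect of losing MCT4 therefore cannot be told apart from an effect of the siRNA itself, and THP-1 is 1 leukaemic line. Nothing in the labels makes the 3 libraries of a group separate cultures, so every p-value measures the spread between these libraries, which may be technical.

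CSF1R is the receptor tyrosine kinase for M-CSF (CSF1) and for IL-34, and its signal keeps macrophages alive. GM-CSF, IL-3 and IL-5 each bind an alpha chain of their own, CSF2RA for GM-CSF and IL3RA for IL-3, which then pairs with the shared beta chain CSF2RB and signals through JAK2 and STAT5. G-CSF acts on granulocytes through CSF3R, while FLT3 and KIT are receptor kinases of the same structural class as CSF1R that mark progenitors and, for FLT3, dendritic cell precursors.

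The promoters of 4 starts are shown because CSF1R is the receptor that defines the macrophage lineage and because CSF2RA and IL3RA, neighbours on the X chromosome, changed in opposite directions. Each is a window of 300 bases from RefSeq (GRCh38.p14), with the start site after base 250, read 5′ to 3′ on the strand of the gene. Capitals mark GAGGAA (a core of PU.1 sites), TGTGGT (RUNX), TTGCNNAA (C/EBP), TTCNNNGAA (GAS, the element that STAT proteins recognise) and the interferon-stimulated response element (ISRE), searched on both strands.
CSF1R, upstream start, chr5:150113316-150113615, minus strand: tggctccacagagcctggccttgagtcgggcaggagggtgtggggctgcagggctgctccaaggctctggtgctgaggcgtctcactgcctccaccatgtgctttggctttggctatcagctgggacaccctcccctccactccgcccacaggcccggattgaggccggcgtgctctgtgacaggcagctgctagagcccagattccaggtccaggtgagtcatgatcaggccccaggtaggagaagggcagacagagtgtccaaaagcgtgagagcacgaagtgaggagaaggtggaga
CSF1R, downstream start, chr5:150086505-150086804, minus strand: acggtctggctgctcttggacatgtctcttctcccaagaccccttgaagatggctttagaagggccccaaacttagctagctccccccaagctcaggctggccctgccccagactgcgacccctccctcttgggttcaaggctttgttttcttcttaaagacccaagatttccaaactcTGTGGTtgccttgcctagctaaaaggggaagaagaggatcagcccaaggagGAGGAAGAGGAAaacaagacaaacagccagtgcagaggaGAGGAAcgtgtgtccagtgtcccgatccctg
CSF2RA, chrX:1268564-1268863, plus strand: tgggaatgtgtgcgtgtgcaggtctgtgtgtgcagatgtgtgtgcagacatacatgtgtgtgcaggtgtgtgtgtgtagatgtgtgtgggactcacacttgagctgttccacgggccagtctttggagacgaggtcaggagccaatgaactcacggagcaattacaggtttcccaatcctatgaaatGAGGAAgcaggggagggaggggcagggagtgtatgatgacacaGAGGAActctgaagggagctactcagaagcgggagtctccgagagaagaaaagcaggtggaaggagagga
IL3RA, chrX:1336535-1336834, plus strand: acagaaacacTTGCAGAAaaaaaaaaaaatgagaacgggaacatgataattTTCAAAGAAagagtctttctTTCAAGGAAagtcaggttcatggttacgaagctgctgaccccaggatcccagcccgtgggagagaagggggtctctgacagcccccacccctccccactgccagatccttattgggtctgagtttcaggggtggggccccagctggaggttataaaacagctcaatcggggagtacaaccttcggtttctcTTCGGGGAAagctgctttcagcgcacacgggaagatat
The downstream CSF1R start, the one used in macrophages, had 3 matches to GAGGAA and 1 to TGTGGT, where the upstream window had neither. CSF2RA had 2 matches to GAGGAA, and IL3RA had 3 to TTCNNNGAA and 1 to TTGCNNAA. Over 34961 windows of the same length, 27.9% held GAGGAA, 13.1% TGTGGT, 10.4% TTGCNNAA, 3.58% the ISRE and 7.66% TTCNNNGAA. The NF-kB pattern, left in lower case, occurred in 58.7% of windows and in all 4 of those shown. These matches describe letters and say nothing of binding. RefSeq windows were matched for 7 of the 9 genes with a row, and those of CSF1 and CSF2RB were not.

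Total counts were 61880619 to 69181938 per library. SLC16A3 itself stood at 11.1, 9.86 and 10.4 FPKM (a level scaled to gene length and library depth) in control libraries 1 to 3 and at 1.13, 1.15 and 1.39 FPKM in siMCT4 libraries 1 to 3. SLC16A3 fell by 3.20 in log2 units (adjusted p = 1.12e-06, SE 0.102). Macrophage markers were present in both groups: the lysosomal protein gene CD68 stood at 381 ± 6.36 FPKM in controls and 432 ± 27.9 FPKM in siMCT4, while CD14 stood at 6.75 ± 0.254 and 1.82 ± 0.579 FPKM (SD, n = 3). Of 10 macrophage markers 1 rose, 6 fell and 3 did not pass, with calls made below an adjusted p of 0.05. By the same rule 20.6% of all genes tested rose and 20.8% fell. The summed level of the 10 markers ran from 1750 to 1810 FPKM in controls and from 1605 to 1749 FPKM in siMCT4. The T cell markers CD3D, CD3E and CD2 had no row in the table. The collagen gene COL1A1 stood at 0.502 ± 0.0922 FPKM in controls and 0.405 ± 0.218 FPKM in siMCT4, while COL3A1 had 0 counts in the 3 controls, and the progenitor marker CD34 had 4 counts in siMCT4 library 1 and 0 in every other library. Among markers of other cell types, the mast cell tryptase TPSAB1 (GC content 65.4%) stood at 14.3 FPKM in controls. It stood at 4.99, 3.43 and 7.93 FPKM in siMCT4 libraries 1 to 3. The mast cell markers CPA3 and MS4A2 had no row, and HDC had at most 12 counts in a library. PECAM1, an endothelial marker that myeloid cells also express, stood at 62 FPKM in controls and 42.5 FPKM in siMCT4. The B cell receptor component CD79A rose from 0.205 ± 0.0505 to 1.69 ± 0.21 FPKM (SD, n = 3; log2 change 2.90, adjusted p = 0.000143). GC-rich genes were much lower in siMCT4 libraries 1 and 2 than in library 3: for 327 genes of at least 64% GC, the log2 ratio to controls had a median of -1.05, -1.17 and -0.22 in libraries 1, 2 and 3. The values of each library are therefore given beside the results, and for some genes a fit with a GC offset is given too. Such an offset also takes out any difference between the groups that follows GC content. It therefore cannot show how much of a change is due to GC content.

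Of the 9 genes with a row, 8 passed the filter on low counts and 6 of these changed at an adjusted p under 0.05 (edgeR, quasi-likelihood, p-values adjusted by Benjamini-Hochberg over all 19944 genes tested, as for every adjusted p here), against 41.4% of all genes tested. IL3RA and CSF1 rose, where 20.6% of all genes tested did. CSF1R, CSF2RA, CSF3R and FLT3 fell, where 20.8% of all did. CSF2RB and FLT3LG did not pass the test, and KIT was too low to test. The libraries of the 2 groups did not overlap in CPM (counts scaled to library depth, with TMM factors) for the 6 genes that changed, a property of 55% of all genes tested. The median log2 change of the 8 tested genes was -0.22, against -0.01 over all genes tested, and the median size of change regardless of sign was 0.58 against 0.43. All changes are siMCT4 minus control. Log2 changes and folds come from TMM-scaled counts, so they differ from ratios of the FPKM values printed beside them. For CSF1 the log2 change was 0.43 on counts and 0.54 on log2(FPKM + 1).

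**Figure D1:**
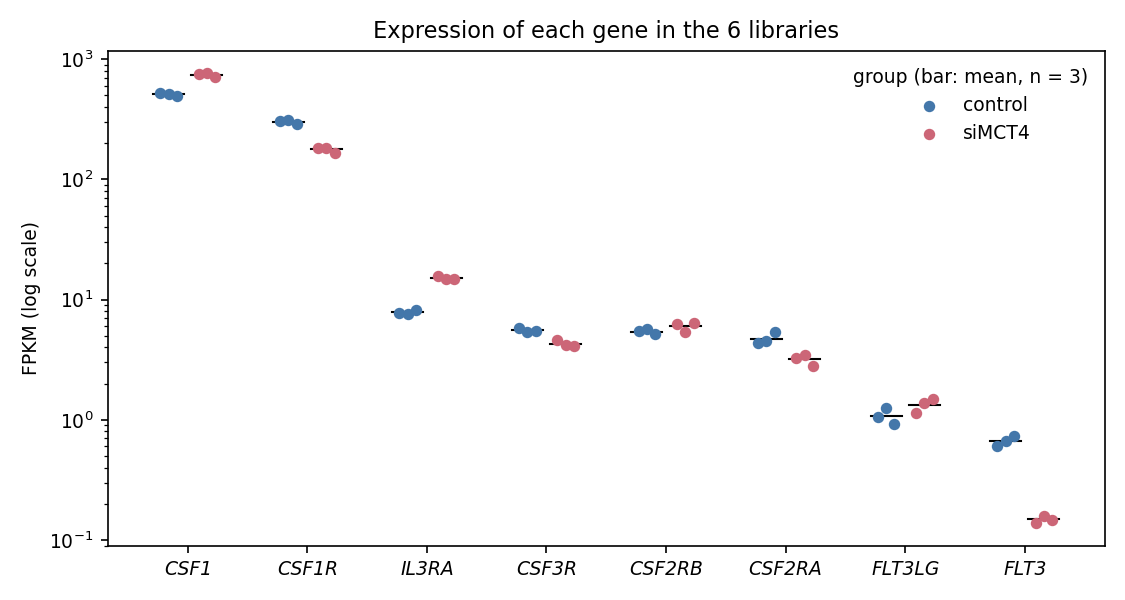
FPKM on a log axis for the 8 tested genes in each library, controls in blue and siMCT4 in red, with a black bar at the mean of 3 libraries. CSF1 and CSF1R lie between 165 and 762 FPKM and every other gene below 16 (highest value 15.7); the groups are apart for CSF1, CSF1R, IL3RA, CSF3R, CSF2RA and FLT3.

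The ligand CSF1 (ENSG00000184371; GRCh38 chromosome 1, 109910242 to 109930992, plus strand, protein coding) was the most abundant of the genes. It stood at 527, 510 and 490 FPKM in control libraries 1 to 3 and at 755, 762 and 706 FPKM in siMCT4 libraries 1 to 3. Every siMCT4 library was above every control. The log2 change of CSF1 was 0.43 (adjusted p = 0.000252, SE 0.0449), a 1.35-fold difference, with ratios of 0.46, 0.47 and 0.37 in siMCT4 libraries 1, 2 and 3. By mean FPKM it ranked 48 among all genes of the table in controls and 36 in siMCT4. These macrophages carried more mRNA for the M-CSF ligand than for any of its relatives measured here.

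Its receptor CSF1R (ENSG00000182578; chromosome 5, 150053291 to 150113372, minus strand, protein coding) changed the other way. CSF1R stood at 303, 309 and 289 FPKM in control libraries 1 to 3 and at 184, 183 and 165 FPKM in siMCT4 libraries 1 to 3. The groups were well apart, with the lowest control above the highest siMCT4 library. CSF1R fell by 0.87 in log2 units (adjusted p = 1.58e-05, SE 0.0508), to 0.547 of the control level, and the ratios of siMCT4 libraries 1, 2 and 3 were -0.82, -0.83 and -0.97. CSF1R ranked 78 by FPKM in controls and 128 in siMCT4, so it stayed among the abundant transcripts. A pseudogene row on the opposite strand, RPL7P1, lies inside CSF1R over 747 bases, and the strand setting of the counting is not given. RPL7P1 fell by 1.15 (adjusted p = 0.000173), and its part in the CSF1R count was not tested.

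As the ligand rose and the receptor fell, their ratio within a library shifted. The FPKM ratio of CSF1 to CSF1R was 1.74, 1.65 and 1.69 in control libraries 1 to 3 and 4.11, 4.17 and 4.27 in siMCT4 libraries 1 to 3. It was 2.47-fold higher in siMCT4 with no overlap between groups. By an exact permutation test (two-sided) p was 0.1, which is as low as 3 libraries against 3 can go, and the adjusted p over the 3 ratios examined was also 0.1. These ratios were chosen after the values were seen, so this test adds no support to the results of the single genes.

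The receptor chains for GM-CSF and IL-3 did not move together. IL3RA (ENSG00000185291; chromosome X, 1336785 to 1382689, plus strand, protein coding), the alpha chain that binds IL-3 and is also known as CD123, stood at 7.78, 7.65 and 8.17 FPKM in control libraries 1 to 3 and at 15.7, 14.9 and 14.7 FPKM in siMCT4 libraries 1 to 3. All siMCT4 libraries were above all controls. The log2 change of IL3RA was 0.83 (adjusted p = 0.000102, SE 0.0713), a 1.77-fold difference that was alike in siMCT4 libraries 1, 2 and 3 (0.88, 0.80 and 0.79). It was the largest rise among the 8 tested genes.

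CSF2RA (ENSG00000198223; chromosome X, 1268800 to 1310381, plus strand, protein coding), the alpha chain for GM-CSF, lies 26404 bases before IL3RA and fell. Its level was 4.38, 4.49 and 5.34 FPKM in control libraries 1 to 3 and 3.25, 3.49 and 2.80 FPKM in siMCT4 libraries 1 to 3. The controls all lay above the siMCT4 libraries, although both groups were less tight than for IL3RA. CSF2RA fell by 0.68 in log2 units (adjusted p = 0.00318, SE 0.12), with ratios of -0.65, -0.54 and -0.86. Both genes sit in the pseudoautosomal region, which has a copy on the Y chromosome. The table lists each on the X chromosome alone, and how reads that fit both copies were placed is not stated.

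The shared beta chain CSF2RB (ENSG00000100368; chromosome 22, 36913628 to 36940439, plus strand, protein coding) did not pass the test. It stood at 5.44, 5.66 and 5.17 FPKM in control libraries 1 to 3 and at 6.24, 5.34 and 6.35 FPKM in siMCT4 libraries 1 to 3, so the groups overlapped. The log2 change was 0.03 (SE 0.0827, adjusted p = 0.79), and the ratios of siMCT4 libraries 1, 2 and 3 were 0.09, -0.13 and 0.12. Relative to this beta chain, the IL-3 alpha chain stood at an FPKM ratio of 1.45 ± 0.117 in controls and 2.53 ± 0.234 in siMCT4 (SD, n = 3). The GM-CSF alpha chain stood at 0.877 ± 0.136 and 0.538 ± 0.107. Neither ratio overlapped between groups, and each had p = 0.1 in the same exact permutation test, again the smallest possible. Both were chosen after the values of their genes were seen, so neither result adds support to those of the single genes.

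**Figure D2:**
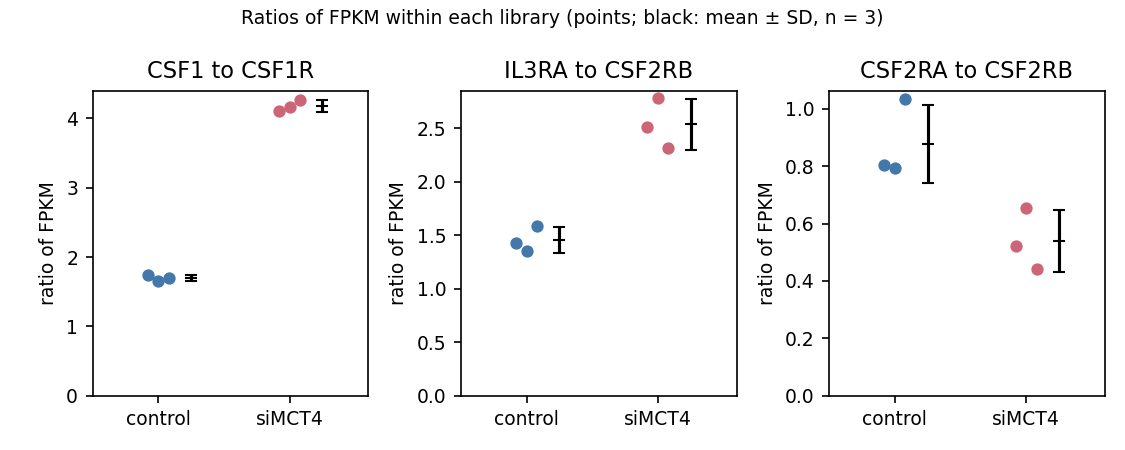
Ratio of FPKM within each library for CSF1 to CSF1R, IL3RA to CSF2RB and CSF2RA to CSF2RB, with controls in blue, siMCT4 in red and the mean ± SD of 3 libraries in black on axes that start at 0. The first 2 ratios are higher in all siMCT4 libraries (means of 1.69 and 4.18, and of 1.45 and 2.53) and the third is lower (0.877 and 0.538).

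CSF3R (ENSG00000119535; chromosome 1, 36466043 to 36483278, minus strand, protein coding), the G-CSF receptor of granulocytes and monocytes, stood at 5.75, 5.37 and 5.48 FPKM in control libraries 1 to 3 and at 4.60, 4.20 and 4.09 FPKM in siMCT4 libraries 1 to 3. The groups did not overlap. CSF3R fell by 0.47 in log2 units (adjusted p = 0.000883, SE 0.0635), with ratios of -0.38, -0.51 and -0.54. Its GC content is 59.0%, and with a GC offset the fall was smaller (-0.27, adjusted p = 0.0172).

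FLT3 (ENSG00000122025; chromosome 13, 28003274 to 28100592, minus strand, protein coding), a receptor of early progenitors and of dendritic cell precursors that is often mutated in acute myeloid leukaemia, had the largest change of the 8 tested genes. It had 190, 197 and 217 counts in control libraries 1 to 3 and 38, 48 and 46 in siMCT4 libraries 1 to 3. This is a low level, 0.668 ± 0.0623 FPKM in controls and 0.149 ± 0.0109 FPKM in siMCT4 (SD, n = 3), and the groups were far apart. FLT3 fell by 2.27 in log2 units (adjusted p = 8.42e-05, SE 0.188), to 0.207 of the control level. The ratios of siMCT4 libraries 1, 2 and 3 were -2.33, -2.12 and -2.21.

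FLT3LG (ENSG00000090554; chromosome 19, 49474207 to 49486231, plus strand, protein coding), the ligand of FLT3, had 229, 256 and 192 counts in control libraries 1 to 3 and 219, 286 and 319 in siMCT4 libraries 1 to 3. The groups overlapped and the log2 change of 0.20 did not pass the test (SE 0.179, adjusted p = 0.406). The ratios were -0.02, 0.25 and 0.37 in siMCT4 libraries 1, 2 and 3. FLT3LG has the highest GC content of the 8 tested genes, 62.4%, and with a GC offset its log2 change was 0.69 (adjusted p = 0.0169), past the threshold.

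KIT (ENSG00000157404; chromosome 4, 54657267 to 54740783, plus strand), the stem cell factor receptor of progenitors and mast cells, had 0 counts in all 3 controls, 17 in siMCT4 library 1 and 0 in siMCT4 libraries 2 and 3. The row lists 2 transcripts, annotated as a retained intron and a processed transcript, so no count was listed for a protein-coding KIT transcript. If each count is a separate event, a count of 0 over the controls together allows up to 3 counts, or 0.015 CPM, by counting error alone. This limit would be higher if both mates of a read pair were counted. The 1 library with counts gives no comparison between groups.

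**Figure D3:**
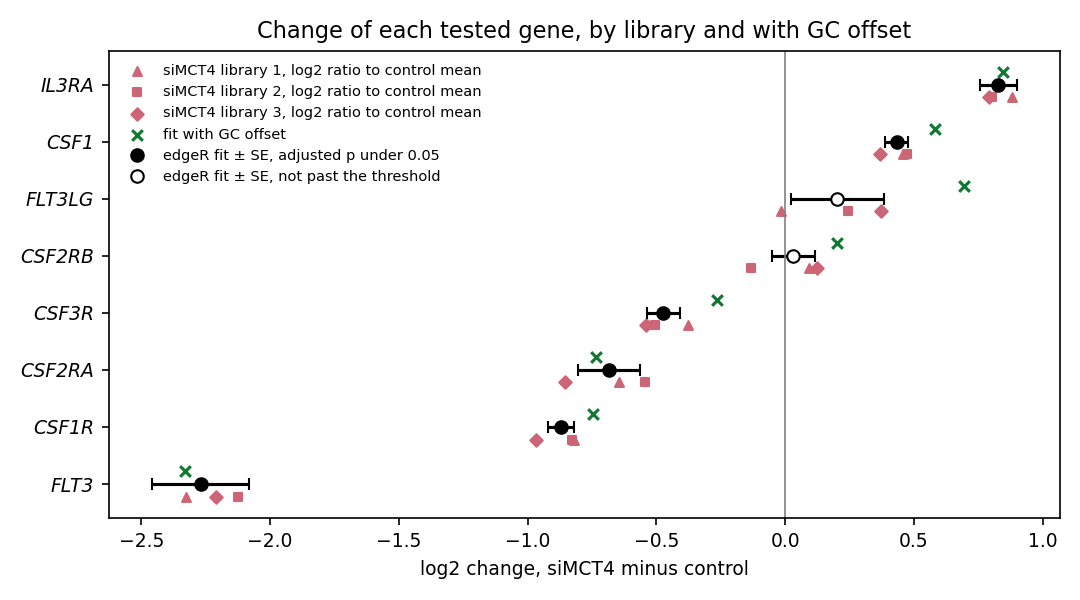
Log2 change (siMCT4 minus control) of the 8 tested genes, as the edgeR estimate ± SE in black (filled where the adjusted p is under 0.05), the log2 ratio of each siMCT4 library to the control mean in red, and the estimate with a GC offset as a green cross. The 3 siMCT4 libraries lie on the same side of 0 for all but CSF2RB and FLT3LG, and the GC offset moves FLT3LG from 0.20 to 0.69.

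By mean FPKM the controls ran CSF1, CSF1R, IL3RA, CSF3R, CSF2RB, CSF2RA, FLT3LG, FLT3 and KIT from high to low. CSF3R overlapped CSF2RB, and CSF2RB overlapped CSF2RA, so these neighbours did not differ beyond their spread. In siMCT4 the order was CSF1, CSF1R, IL3RA, CSF2RB, CSF3R, CSF2RA, FLT3LG, FLT3 and KIT, and no neighbours overlapped.

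The genes closest in profile to the 4 most abundant were found by the root mean square difference of log2 CPM, each profile centred on its own mean over the 6 libraries, among 5901 genes of at least 5 FPKM. Closest to CSF1R was GAB2 (0.0259), a docking protein that M-CSF signalling uses, followed by the DNA repair enzyme PARP1 (0.0287) and PAPSS1 (0.0337). Closest to CSF1 were SYNJ2 (0.0222), ZBTB40 (0.023) and TMEM63A (0.0234). IL3RA was nearest to the sphingosine kinase SPHK1 (0.0308), the clearance receptor MERTK (0.0388) and RP2 (0.0429), and CSF2RB to RNGTT (0.0359), FOS (0.0392) and SP3 (0.0425). With 6 libraries in 2 groups this likeness rests mainly on the difference between the groups.

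Other genes of these pathways were counted over 6 lists. Of 95 symbols 85 were tested, of which 36 rose, 22 fell and 27 did not pass, so that 68.2% were called. Over all genes tested 41.4% were called, 20.6% higher and 20.8% lower, and the counts of each list below are to be read against these shares. The list of other ligands and receptors had 2 of 5 tested genes higher and 1 lower. KITLG, the ligand of KIT, stood at 13.6 ± 0.505 FPKM in controls and 6.48 ± 0.502 FPKM in siMCT4 (SD, n = 3) and fell by 1.17 on the log2 scale (adjusted p = 1.68e-05). The G-CSF gene CSF3 had 0, 0 and 8 counts in control libraries 1 to 3 and 58, 50 and 63 in siMCT4 libraries 1 to 3 (adjusted p = 0.0111). GM-CSF itself, CSF2, was nearly silent, with 8 counts in control library 3, 13 in siMCT4 library 1 and 0 in the other libraries. The related kinase PDGFRA, at 0.122 ± 0.0261 and 0.219 ± 0.0395 FPKM, rose by 0.73 (adjusted p = 0.049) but lost its call in 15 of 18 alternative analyses. IL3, IL5RA and PTPRZ1 were not analysed here.

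Among 22 tested signalling genes 6 rose, 8 fell and 8 did not pass, with a median log2 change of 0.04. The kinase JAK2, which binds the common beta chain, rose by 0.59 (adjusted p = 0.000308), from 5.78 ± 0.102 to 9.41 ± 0.668 FPKM. The adaptor GRB2 rose by 0.45 (adjusted p = 0.000117). STAT5B fell by 0.40 (adjusted p = 0.000674), while STAT5A stood 0.12 log2 units above controls (adjusted p = 0.153) and passed as higher in 6 of 18 alternative analyses. GAB2 fell by 0.86 (adjusted p = 7.03e-05) and the Src-family kinase FGR by 0.55 (adjusted p = 0.00021).

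Negative regulators and sheddases had the largest share of calls of the 6 lists, with 10 of 15 tested genes higher, 3 lower and 2 not passing and a median log2 change of 0.37. SLA, an adaptor that dampens receptor signalling, rose by 3.36 (adjusted p = 2.98e-07), from 2.49 ± 0.168 to 27.7 ± 1.97 FPKM. CISH, a feedback inhibitor induced by STAT5, had 305, 311 and 264 counts in control libraries 1 to 3 and 2642, 3055 and 3394 in siMCT4 libraries 1 to 3. The log2 change of CISH was 3.29 (adjusted p = 7.31e-07, SE 0.0954). The ubiquitin ligase CBLB rose by 1.08 (adjusted p = 3.57e-06), and ADAM17, a protease that sheds CSF1R from the cell surface, by 0.38 (adjusted p = 0.000238). INPP5D, the phosphatase SHIP, fell by 0.66 (adjusted p = 3.21e-05).

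Of 17 lineage transcription factors 5 rose, 6 fell and 6 did not pass (median log2 change -0.11). ETS2 fell by 1.24 (adjusted p = 5.61e-06) and EGR1 by 0.94 (adjusted p = 0.000101), while EGR2, a factor of the same family, rose by 0.90 (adjusted p = 3.00e-05) and ZEB2 by 0.48 (adjusted p = 0.000149). IRF8, a factor of monocyte and dendritic cell fate, fell by 0.32 (adjusted p = 0.00319), but not past the threshold on TPM (-0.11, adjusted p = 0.141). SPI1, which encodes PU.1, the factor of the GAGGAA letters shown above, had 11573, 10693 and 10466 counts in control libraries 1 to 3 and 9468, 8442 and 16170 in siMCT4 libraries 1 to 3. Library 3 stood above all controls and libraries 1 and 2 below them, and the log2 change was -0.02 (adjusted p = 0.941). SPI1 passed as lower without siMCT4 replicate 3 (-0.32, adjusted p = 0.00824) and as higher with a GC offset (0.60, adjusted p = 0.000192). That library by itself stood 0.44 log2 units above the controls, a value with 1 library in the arm. Its GC content is 64.3%.

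Genes typical of macrophages grown in M-CSF were split, with 6 of 13 tested genes higher, 2 lower and 5 not passing (median log2 change 0.27). The chemokine CCL2 (log2 change 4.76), the secreted ribonuclease RNASE1 (4.56), the cytokine IL10 (4.53) and MERTK (0.86) rose. The complement receptor VSIG4 fell by 1.32 (adjusted p = 7.42e-06) and the haemoglobin scavenger receptor CD163 by 1.57 (adjusted p = 3.10e-05). Of genes typical of macrophages grown in GM-CSF, 7 of 13 tested rose, 2 fell and 4 did not pass (median log2 change 1.25). CCL22, a chemokine for regulatory T cells, rose by 6.02, the elastase MMP12 by 7.26, the retinoic acid enzyme ALDH1A2 by 4.11, the activin subunit INHBA by 1.64 and the lipid-sensing receptor PPARG by 1.25. MMP12 was near the floor in controls, with 16, 11 and 34 counts in libraries 1 to 3. Its log2 change ran from 4.54 to 7.87 over 18 alternative analyses. The chemokine receptor CCR2, a member of the same list, fell by 2.19 (adjusted p = 1.72e-05). Whether the 2 lists differ was not tested.

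**Figure D4:**
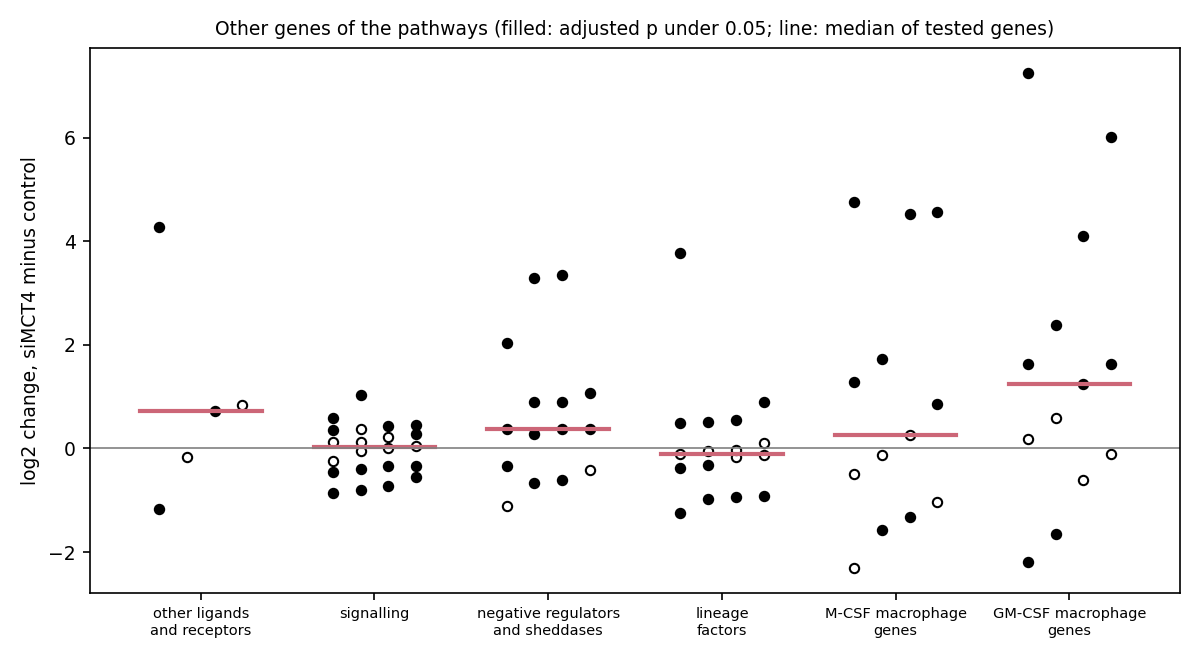
Log2 change (siMCT4 minus control) of each tested gene in the 6 pathway lists, filled where the adjusted p is under 0.05 and open otherwise, with a red line at the median of the list. The medians run from -0.11 (lineage factors) to 1.25 (GM-CSF macrophage genes), and each list holds genes on both sides of 0.

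Since FLT3 marks progenitors, progenitor and proliferation markers are given beside its fall. Of 6 tested progenitor markers 0 rose, 3 fell and 3 did not pass, where 41.4% of all genes tested were called, and their summed level ran from 102 to 108 FPKM in controls and from 19.4 to 76.2 FPKM in siMCT4. The 2 most abundant, AZU1 and PRTN3, encode granule proteins and have a GC content of 64.8% and 66.2%. AZU1 stood at 16.4, 11.9 and 31.6 FPKM in siMCT4 libraries 1 to 3, against 42 ± 1.43 FPKM in controls (SD, n = 3). AZU1 fell by 1.18 (adjusted p = 0.0212) but lost its call in 5 of 18 alternative analyses. PRTN3, which did not pass (adjusted p = 0.203), stood at 2.21, 1.55 and 29.4 FPKM in siMCT4 libraries 1 to 3, against 34.2 ± 1.14 FPKM in controls. In library 3 the log2 ratio to the controls was -0.32 for PRTN3 and -0.14 for the elastase ELANE (adjusted p = 0.206), against -2.21 for FLT3. MYB, a factor of immature blood cells, fell by 1.99 (adjusted p = 6.18e-06) and GATA2 by 1.87 (adjusted p = 4.61e-06). The ratios of siMCT4 libraries 1, 2 and 3 were -2.12, -1.98 and -1.87 for MYB and -1.90, -1.98 and -1.74 for GATA2. Of 12 proliferation genes 10 fell and 0 rose, and their summed level ran from 83.2 to 86.9 FPKM in controls and from 25.6 to 37.7 FPKM in siMCT4. The most abundant in controls was TOP2A, a topoisomerase of dividing cells (log2 change -3.14, adjusted p = 0.00164), and MKI67, the Ki-67 antigen, fell by 3.28 (adjusted p = 1.40e-05). TOP2A stood at 2.65, 2.31 and 0.587 FPKM in siMCT4 libraries 1 to 3. In siMCT4 the most abundant were AURKA and PCNA, at 8.93 and 7.91 FPKM, and neither passed (adjusted p = 0.448 and 0.547). Of 4 tested dendritic cell markers 3 rose and 1 fell, with a summed level of 2.51 to 2.88 FPKM in controls and 21.0 to 24.3 FPKM in siMCT4. Nearly all of the siMCT4 sum was CCR7, a chemokine receptor of migrating dendritic cells, at 20.2, 22.4 and 19.2 FPKM in siMCT4 libraries 1 to 3 against 0.937 ± 0.0211 FPKM in controls. The factor BATF3 was the most abundant in controls and fell, from 1.42 ± 0.0773 to 0.889 ± 0.271 FPKM (adjusted p = 0.0338). BATF3 lost its call in 8 of 18 alternative analyses. In bulk RNA, fewer cells of a type and less RNA per cell cannot be told apart, and the part of these shifts in the receptor levels was not tested.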

How the data were processed

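RNA of 6 libraries, 3 control and 3 siMCT4, was prepared with dUTP strand marking and sequenced as paired ends, per the labels' protocols. Cutadapt 1.9, HISAT2 2.2.1 and the build GRCh38 are listed in the submitters' processing notes, without roles or order. The counter, its annotation and strand setting were not found there or in the labels. Each library has, per the file headers, a deposited count column and an FPKM column. Between 58.7% and 60.9% of the counts in the range 2 to 41 were even, as can arise when both mates are counted.

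The deposited counts were tested with edgeR 4.0.16 (R 4.3.3; quasi-likelihood test, two-sided, TMM scaling, group as the only factor) after filterByExpr (minimum count 10, minimum total count 15), leaving 19944 genes. The script was checked on simulated counts. SE was derived from the fold change and its F statistic. SDs were taken within a group (n = 3). GC content came from GENCODE 29 transcripts (96.8% of tested genes), and the GC offset is a smooth curve per library. TPM was made from the deposited FPKM. Ratios of FPKM had an exact permutation test over 20 assignments.

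The genes and lists were chosen with earlier results of these data known. Named are SLC16A3, all genes of the set, up to 4 called genes with the smallest adjusted p per pathway list, a fixed few (SPI1, CSF2, KITLG, JAK2, STAT5A, STAT5B, CISH, IRF8, ADAM17, PTPRZ1), and the 3 nearest profiles of the 4 most abundant genes of the set. CD163, MERTK (among M-CSF genes), PPARG, CCR2, CCR7, CD79A, MYB, GATA2, PRTN3, ELANE and RPL7P1, and the promoters shown, were chosen after their values were seen. Markers named are defining ones, the most abundant per list and those at 0. Some genes that the rule names are not reported here. The mast cell, lymphocyte and stromal or endothelial marker lists had 1, 2 and 2 tested genes, of which 1, 1 and 1 were called. Alternatives were DESeq2 1.42.0, limma 3.58.1 on log2 FPKM or TPM, other scaling and filters, a replicate block, a GC offset, halved counts and left-out libraries. Replicate numbers were not taken to pair the libraries in the main analysis.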

Additional observations from a re-analysis of the deposited data

How the results depend on the processing

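Over 18 alternative analyses the count of genes of the set that changed was 6 to 7 (6 in the main analysis), that of pathway genes 55 to 67 (58) and that of all genes 6652 to 9547 (8260). CSF1R (-0.97 to -0.67), CSF1 (0.37 to 0.63), CSF2RA (-0.86 to -0.45), CSF3R (-0.54 to -0.26), IL3RA (0.79 to 1.01) and FLT3 (-2.33 to -0.54) kept their direction and their call in all 18. One of the 18 sets siMCT4 library 3 alone against the controls, so its spread comes from the controls and the lone library is assumed to vary like them. The smallest value of FLT3 is on log2(FPKM + 1), which understates low genes. FLT3LG passed as higher with a GC offset, alone (0.69) or with the replicate block (0.70).

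Leaving out 1 library gave 6 to 6 genes of the set, 56 to 67 pathway genes and 6652 to 9547 genes in all. Reversed signs were seen for CSF2RB without siMCT4 replicate 3 (-0.016; 0.107 at most without another library), CD68 with siMCT4 library 3 alone (-0.034), COL1A1 with the same library alone (0.27) and SPI1. SPI1 was 0.035 on log2 FPKM with a pseudocount of 1 (with or without a filter) or 0.1, 0.13 on TPM, 0.60 with a GC offset, 0.60 with a GC offset and replicate block, and 0.44 with siMCT4 library 3 alone. Leaving out 1 library moved SPI1 between -0.322 and 0.159, and it was above 0 without control replicate 1 (0.012), siMCT4 replicate 1 (0.052) and siMCT4 replicate 2 (0.159). The cause was not tested. On TPM 68.2% of all calls were higher, against 49.8% in the main analysis, and the median of all genes was 0.14. Limma on log2(FPKM + 1) gave 59.4%. The median shift on TPM is smaller than every called change in the set.

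With the replicate number as a block 6 genes of the set were called (2 higher, 4 lower) and 6921 genes in all. Deviations of same-numbered libraries correlated at -0.06, -0.003 and -0.05, and those of differently numbered libraries at -0.02 to 0.07. These values show no pairing by number, but they cannot exclude a shared batch or culture. Counts were low for FLT3 (38 to 217 a library), and KIT, whose row lists no protein-coding transcript, was too low to test. The limit given for KIT covers counting error only, whereas the SDs and SEs include the spread between libraries.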
